A study of Mus musculus with 6 samples.

Results

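The genes described here belong to the amino acid response driven by the transcription factor ATF4 and to the unfolded protein response of the endoplasmic reticulum (ER). They were listed by symbol as genes of these pathways, with earlier results of these data known. The list held 22 genes of the amino acid response and 10 ER chaperone and unfolded protein response genes. These were 32 of the 23366 genes in the table. All 32 were present, and all had a mean of at least 10 normalized counts, the minimum for testing, which 12820 genes reached. The cells were SC4, a mouse Schwann cell line without a functional Nf2 gene, which encodes the tumour suppressor merlin, so both groups were Nf2-null. One group received a control siRNA and the other pooled siRNAs directed at Yap1, whose product YAP is the co-activator that the Hippo pathway restrains. RNA was taken 48 hours after transfection and sequenced, with 3 libraries per group numbered 1 to 3. All results come from this 1 cell line, and whether the libraries of a group came from separate cultures is not given, so each p-value rests on a spread between libraries that may be technical.

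When amino acids run short or unfolded proteins collect in the ER, kinases phosphorylate the translation factor eIF2alpha; most protein synthesis slows, while translation of the Atf4 mRNA goes up. ATF4 then induces genes for amino acid synthesis, amino acid transport and tRNA charging, and, with its partner CHOP (the Ddit3 product), genes linked to cell death and to feedback. The ER has further sensors: IRE1 (Ern1), which splices the Xbp1 mRNA, and ATF6, which is cut by the proteases encoded by Mbtps1 and Mbtps2 and then acts on chaperone promoters. Because ATF4 is controlled largely in translation, ATF6 by cleavage and XBP1 by splicing, gene-level mRNA counts of these regulators do not measure their activity.

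Promoter windows show the DNA elements that define both branches, and they are printed for genes whose values are turned to below. Windows of 300 bases (250 upstream of the annotated start and 50 from it, RefSeq on GRCm38.p6) were found for 27 of the 32 genes, and 4 motifs were searched on both strands. The measured values are per gene, and carry no coordinates; the submitters' notes name another build, mm9. The core of the amino acid response element, TGATGNAA, was present in 7 of 18 amino acid response genes with a window (38.9%) and in 1 of 9 ER genes (11.1%), against 2.72% of the tested genes with a window and 3.97% of all windows. The 7 were Chac1, Vldlr, Trib3, Asns, Aars, Gars and Iars, and the ER gene was Herpud1. In the lines below the motif is in capitals, all sequences run 5′ to 3′ on the strand of the gene, and a match on the opposite strand reads as the reverse complement.

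Chac1, chr2:119351044-119351061, gene on the plus strand, opposite-strand match: tgccgTTGCATCActcct

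Vldlr, chr19:27216815-27216832, gene on the plus strand, opposite-strand match: aatagTTGCATCAgcgct

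Trib3, chr2:152344034-152344051, gene on the minus strand, opposite-strand match: caggtTTACATCAgccgg

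Asns, chr6:7693220-7693237, gene on the minus strand, gene-strand match: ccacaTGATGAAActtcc

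Herpud1, chr8:94386312-94386329, gene on the plus strand, opposite-strand match: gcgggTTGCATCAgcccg

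The ER stress response element, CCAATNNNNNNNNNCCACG, to which ATF6 is known to bind together with NF-Y, was present in 4 of 9 ER genes (44.4%) and in 0 of 18 amino acid response genes, against 0.119% of all windows. Hspa5, Calr, Hsp90b1 and Creld2 carried it, Hsp90b1 at 2 positions. Among the tested genes with a window, 0.159% held it. The shorter ER stress response element II, ATTGGNCCACG, was in 1 ER gene, Herpud1, and in 0.0365% of all windows. The unfolded protein response element TGACGTGG was in 0 members and in 0.676% of all windows. No 2 of these matches overlapped.

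Hspa5, chr2:34772020-34772048, gene on the plus strand, gene-strand match: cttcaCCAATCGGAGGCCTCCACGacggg

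Hsp90b1, chr10:86705633-86705661, gene on the minus strand, gene-strand match: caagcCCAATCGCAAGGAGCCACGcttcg

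Creld2, chr15:88819515-88819543, gene on the plus strand, opposite-strand match: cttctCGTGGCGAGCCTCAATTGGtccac

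Herpud1, chr8:94386372-94386392, gene on the plus strand, ER stress response element II on the gene strand: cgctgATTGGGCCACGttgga

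Herpud1, which encodes an ER membrane protein of the degradation pathway for misfolded proteins, was thus the 1 gene whose window held an element of each kind. A match is a description of the window, and no match says only that the letters were not found there. The elements were picked as those that define both branches, so their higher shares among these genes are no test of the lists.

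**Figure D1:**
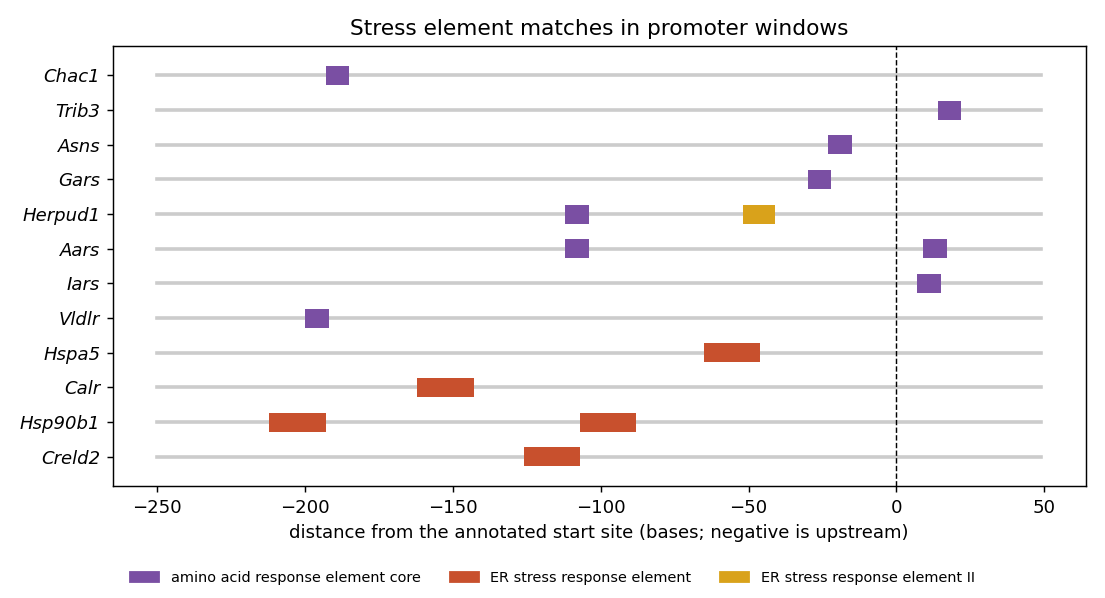
Positions of element matches in the 300-base promoter windows of the 12 genes that hold one; the x axis is the distance from the annotated start site in bases, bars are matches coloured by element, and grey lines are the windows. Amino acid response element cores sit in 7 amino acid response genes and Herpud1, and ER stress response elements in 5 ER genes.

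Libraries held between 18025132 and 60078880 reads in genes. The siRNA target Yap1 had 4749.6, 5732 and 4751 normalized counts in control libraries 1 to 3 and 936, 571 and 475 after YAP siRNA, 13.0% of the control mean. In limma without a block, 0 genes were called higher and 0 lower (0% and 0% of 12820 tested) at an adjusted p under 0.05, edgeR called 0 in each direction, and 1558 (12.2%) had an unadjusted p under 0.05. Blocking on the replicate number gave 1067 higher (8.32%) and 1149 lower (8.96%) in limma. Yap1 itself had a limma adjusted p of 4.5e-04 with the block and 0.118 without it. With the block but no mean-variance trend it was 0.0604. Libraries of number 1 stood apart from numbers 2 and 3 in both groups. Below, a gene is said to have fallen or risen only where its adjusted p was under 0.05 in the fit with the block (the blocked p); without it no gene passed in limma or edgeR. Among defining markers of the Schwann lineage, Sox10 and S100b had means under 10, with Sox10 between 0 and 15.6 normalized counts, while Mbp and Pmp22 were measured in each library. The 11 Schwann lineage markers summed to 8848 to 11506 normalized counts in the controls and 8727 to 17058 after YAP siRNA, and of the 8 tested, 2 rose and 1 fell. The 5 fibroblast markers, Col1a1 among them, summed to 241201 to 512196 and to 193626 to 376836, with 2 of 4 tested lower. Macrophage and endothelial markers summed to at most 341 and 271.3 normalized counts in any library. Their part in the results below was not tested, and in bulk RNA fewer cells of a type and less RNA per cell cannot be told apart.

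Among the 22 amino acid response genes, 3 fell with the block and 0 rose (13.6% lower, against 8.96% of all genes, and against 11% of the 8011 genes at least as abundant as the lowest of the 32, Phgdh). Among the 10 ER genes 1 fell and 0 rose (10.0%). All 3 that fell in the amino acid response were among the 6 regulators and effectors, and 0 of 7 biosynthetic enzymes and 0 of 9 tRNA synthetases passed. Without a mean-variance trend in the blocked fit, or without number 2 of both groups, 0 of the 32 passed. A share of this size lies near that of all genes.

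Ddit3, Vldlr and Chac1 fell, and Atf4 and Trib3 did not pass. Ddit3 encodes CHOP, a transcription factor induced by ATF4 that is linked to cell death under prolonged stress. It had 2225, 3689 and 4142 normalized counts in control libraries 1, 2 and 3, and 1642, 2419 and 2169 after YAP siRNA. Each YAP siRNA library was below the control of its number, but the groups overlapped, because control 1 lay below YAP siRNA library 2. The log2 fold change, on the log2(value + 1) scale used throughout, was −0.66 (SE 0.113, blocked limma adjusted p 0.00799, unblocked 0.415). Leaving out number 2 of both groups, adjusted p was 0.0687, and in limma without a mean-variance trend it was 0.10.

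Vldlr encodes a lipoprotein receptor of the VLDL type that ATF4 is known to induce under ER stress. Its values were 4771, 9091 and 8426 in the controls and 3473, 5242 and 4791 after YAP siRNA. Here too the libraries of number 1 were the lowest of each group, and the groups overlapped. The log2 fold change was −0.69 (SE 0.0990, blocked limma adjusted p 0.00442, unblocked 0.418), the lowest among the 32 genes. Adjusted p with the block was 0.0614 without number 2 and 0.0899 without a trend.

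Chac1 encodes an enzyme that breaks down glutathione and is a target of the ATF4, ATF3 and CHOP cascade. It had 1317, 1196 and 1408 normalized counts in the controls and 977, 1006 and 1020.2 after YAP siRNA. Every YAP siRNA library was below every control library, and YAP siRNA libraries differed little from each other. The log2 fold change was −0.38 (SE 0.109, blocked limma adjusted p 0.0446, unblocked 0.331). An exact two-sided permutation test gave p = 0.1, the smallest that 3 against 3 libraries allow. The call was lost without number 2 (blocked limma adjusted p 0.213), without number 3 (0.237), without a trend (0.131) and when libraries were rescaled to one total (0.0561).

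Atf4 itself had 39484, 15041 and 12443 normalized counts in the controls and 31928, 16227 and 14112 after YAP siRNA. Number 1 was highest in both groups. The YAP siRNA library was lower than its control in number 1 and higher in numbers 2 and 3, and the log2 fold change was −0.0051 with a blocked 95% interval from −0.25 to 0.24 (blocked limma adjusted p 0.978). Rescaling libraries to one total or to the same quantiles turned it to 0.022.

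Trib3 encodes a pseudokinase that ATF4 and CHOP induce and that restrains ATF4 in turn. Its values were 781, 1129.5 and 987 in the controls and 729.7, 1485 and 1222 after YAP siRNA. It was higher in 2 of 3 pairs, with a log2 fold change of 0.20 (95% interval −0.094 to 0.50, blocked limma adjusted p 0.309). Sesn2, which encodes a leucine-binding inhibitor of mTORC1 signalling, was lower in all 3 pairs, with a log2 fold change of −0.34 (SE 0.117), and did not pass (blocked limma adjusted p 0.0776). The estimates for the CHOP gene and its target Trib3 had opposite signs, but only that of Ddit3 passed, and the interval of Trib3 included 0. Whether the 2 fold changes differ was not tested.

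**Figure D2:**
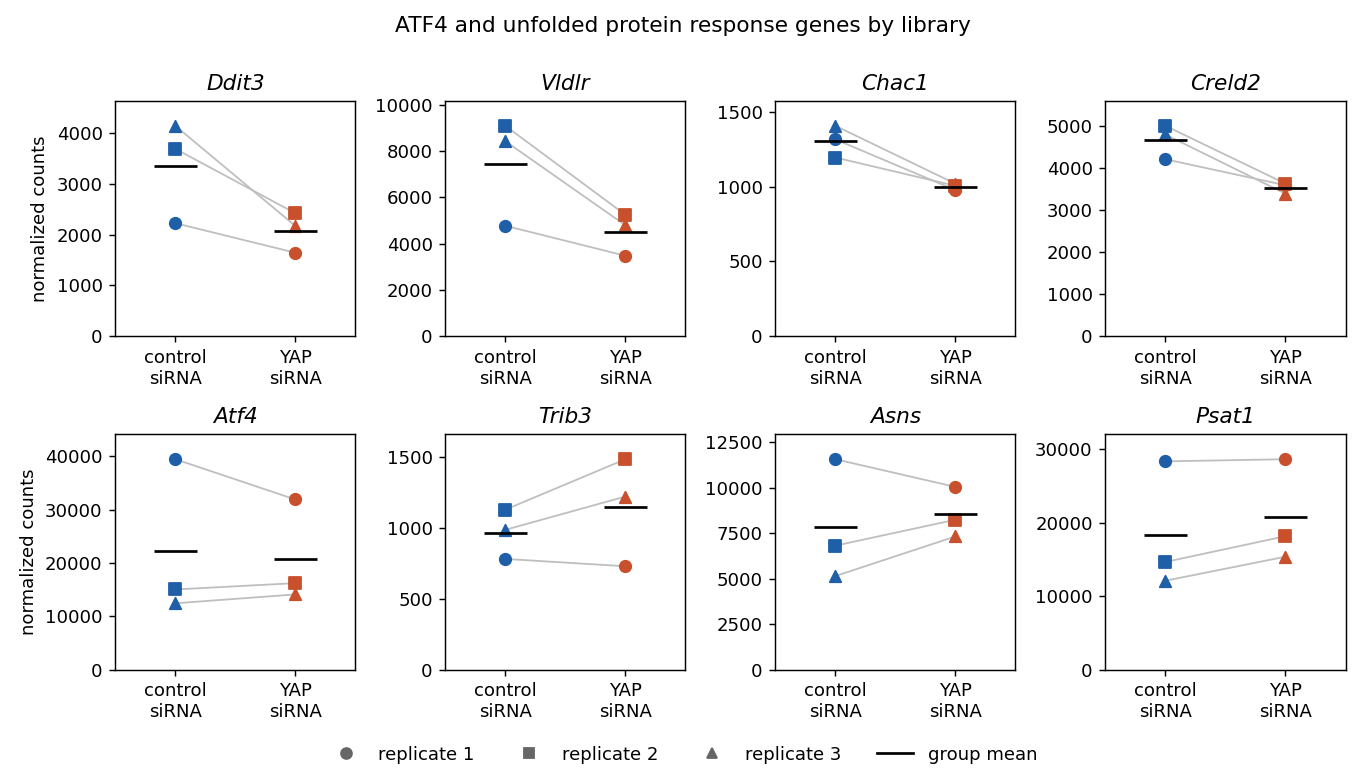
Normalized counts (y axis, from 0) of 8 genes in control and YAP siRNA libraries (x axis); points are libraries with symbols for replicate numbers, grey lines join equal numbers, and black bars are group means (n = 3). Ddit3, Vldlr, Chac1 and Creld2 are lower in each pair, while Trib3 and Asns are lower in pair 1 and higher in pairs 2 and 3, as is Atf4; Psat1 is higher in all 3 pairs.

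Of the 7 enzymes of asparagine, serine and one-carbon metabolism 0 passed, and their log2 fold changes lay on both sides of 0. Asns makes asparagine and is a classical ATF4 target. It had 11561, 6811 and 5139.9 normalized counts in the controls and 10040.0, 8237 and 7318 after YAP siRNA, lower in pair 1 and higher in pairs 2 and 3 (log2 fold change 0.19, SE 0.129, blocked limma adjusted p 0.327).

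In the serine pathway Phgdh, Psat1 and Psph carry out its consecutive steps. Psat1 was measured at 28359.5, 14658 and 12103 in the controls and 28649.8, 18167 and 15376 after YAP siRNA. It was the 1 amino acid response gene higher in all 3 pairs, with a log2 fold change of 0.22 (SE 0.0941, blocked limma adjusted p 0.132). Psph had −0.043 (95% interval −0.26 to 0.18). Phgdh had 1024, 166 and 379 in the controls and 997, 158 and 220.0 after YAP siRNA, a log2 fold change of −0.30 (95% interval −0.72 to 0.13). Of the 31-mers of its transcript, 73.5% also occur in other annotated genes, mainly pseudogenes, so its count depends on how shared reads were assigned, and its values are uncertain.

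Shmt2 and Mthfd2, mitochondrial enzymes that pass carbon from serine to folate, and Aldh1l2, a mitochondrial folate enzyme that releases carbon dioxide, were at 87.5%, 83.4% and 90.2% of their control means. Mthfd2 had 5464, 6465 and 6224 in the controls and 5664, 5176 and 4299.5 after YAP siRNA. It was lower in pairs 2 and 3 and slightly higher in pair 1 (log2 fold change −0.27, SE 0.116, blocked limma adjusted p 0.143). Without number 1 of both groups the log2 fold changes were 0.39 for Asns, 0.33 for Psat1, −0.34 for Shmt2 and −0.43 for Mthfd2. In the same order they were 0.15, 0.18, −0.23 and −0.24 without number 2. Without number 3 they were 0.035, 0.16, −0.12 and −0.13, so their size depended on the number left out.

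Cytosolic tRNA synthetases, which join amino acids to their tRNAs, had log2 fold changes between −0.22 and 0.098, with a median of −0.023. The strongest by p was Aars, the alanyl enzyme, with 18665, 17272 and 15106 normalized counts in the controls and 15249, 14986 and 13604 after YAP siRNA. It was lower in each pair (log2 fold change −0.22, SE 0.0815, blocked limma adjusted p 0.101). Gars, Cars and Sars, the glycyl, cysteinyl and seryl enzymes, were also lower in all 3 pairs, at −0.21, −0.16 and −0.14, and did not pass. Cars was the 1 synthetase whose groups did not overlap. Nars, Wars, Mars, Eprs and Iars had intervals that all lay between −0.23 and 0.29 with the block.

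Aars shares 1326 bases of exon with Exosc6 on the same strand, and Iars shares 17.7% of its 31-mers with other genes, mainly a pseudogene. On opposite strands, Aldh1l2 overlaps D10Wsu102e by 1056 bases, Psph overlaps Cct6a by 452, Hsp90b1 overlaps 1810014B01Rik by 415, and Ddit3 overlaps Mars by 68. The strand setting of the counting is not given in the sources used here, so reads from these stretches cannot be assigned. Of the 32 genes, 21 shared no 31-mer with another gene and 4 shared over 10%: Phgdh, Aars, Iars and Dnajb9.

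Of the 10 ER genes, 8 had log2 fold changes below 0, and 1, Creld2, fell. Like Hspa5, Hsp90b1 and Calr, which did not pass, Creld2 has the ER stress response element in its promoter window. It encodes an ER-resident protein with disulfide isomerase activity. It had 4206, 5002 and 4795 normalized counts in the controls and 3588, 3627 and 3388 after YAP siRNA. Every YAP siRNA library was below every control, and the mean was 75.7% of that of the controls. This gave a log2 fold change of −0.40 (SE 0.0936, blocked limma adjusted p 0.0241, unblocked 0.281; exact two-sided permutation p = 0.1). DESeq2 called it without the block as well (adjusted p = 0.0498), as the 1 gene of the 32, where it called 3.1% of all genes lower and 2.54% higher. The call was lost without number 2 (blocked limma adjusted p 0.247), without number 3 (0.117) and without a trend (0.134).

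Sdf2l1, Pdia4 and Dnajb9 came next and did not pass. Sdf2l1, a component of the ER chaperone complex around BiP, had 1005, 1464 and 1488 in the controls and 879, 1166 and 1007 after YAP siRNA (log2 fold change −0.36, SE 0.116, blocked limma adjusted p 0.0656). Pdia4, a protein disulfide isomerase, was at −0.26 (blocked limma adjusted p 0.0902). Dnajb9, the BiP co-chaperone ERdj4, had 731, 478 and 609.6 in the controls and 462, 454 and 469 after YAP siRNA. Its groups did not overlap, its fold change was −0.66 in pair 1 and −0.073 in pair 2, and 11.3% of its 31-mers occur in another gene.

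Hspa5, Hsp90b1, Calr and Manf did not pass either. Hspa5, which encodes BiP, the ER HSP70 and the usual marker of the unfolded protein response, had 41540.1, 41464 and 37184 normalized counts in the controls and 34778, 38010.4 and 34111 after YAP siRNA. It was lower in each pair (log2 fold change −0.17, 95% interval −0.36 to 0.022, blocked limma adjusted p 0.192), and the groups overlapped. Hsp90b1, the ER HSP90, and Calr, the lectin chaperone calreticulin, had −0.15 and −0.17, with adjusted p = 0.308 and 0.213 in the same fit. Manf, a secreted ER stress protein, was at −0.035. Per kilobase of annotated exon, Hsp90b1 had the highest control level of the 32 genes at 15733 normalized counts and Phgdh the lowest at 210.4.

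The last ER stress genes, Herpud1 and Xbp1, did not pass. Herpud1 had 1977, 1701 and 1645 in the controls and 2129, 1936 and 1994 after YAP siRNA, the 1 ER gene higher in all 3 pairs (log2 fold change 0.19, SE 0.0964, blocked limma adjusted p 0.201). Xbp1 had 2912, 2822 and 2616 in the controls and 2231, 3149.6 and 3159 after YAP siRNA, lower in pair 1 and higher in the others (log2 fold change 0.015, 95% interval −0.28 to 0.32). These gene-level counts do not separate spliced from unspliced Xbp1 mRNA.

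**Figure D3:**
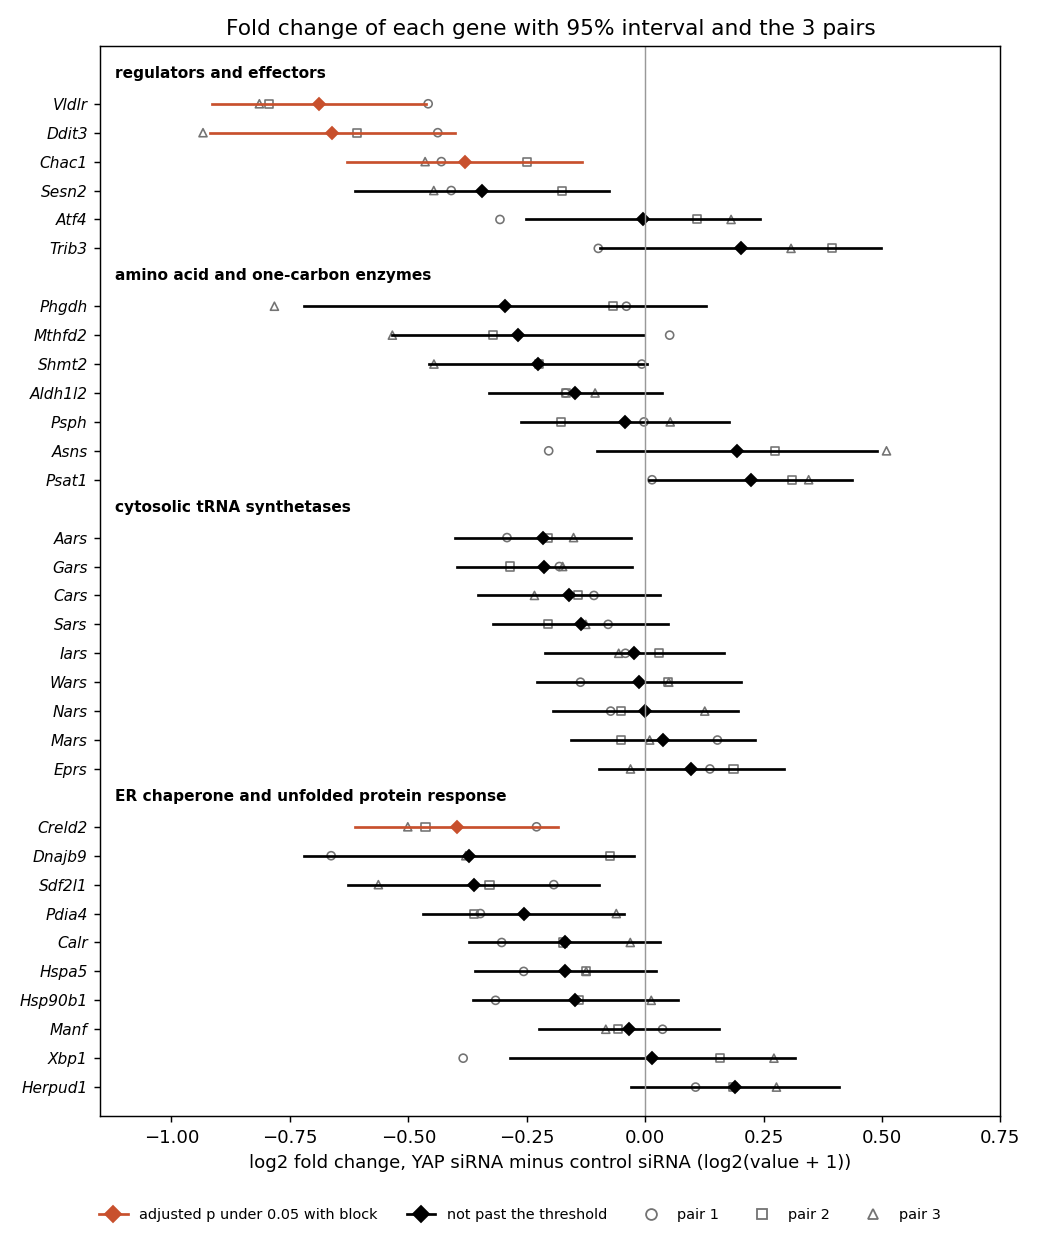
Log2 fold change of each of the 32 genes (x axis, YAP siRNA minus control siRNA) with its 95% interval with the replicate block (bars), and the 3 pair differences (open symbols); genes past an adjusted p of 0.05 with the block are in red. The 4 red genes lie between −0.69 and −0.38, and no gene above 0 is red.

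The lists were chosen with earlier results of these data known, so the shares and medians below describe them and are not an independent result. By direction, 16 of 22 amino acid response genes and 8 of 10 ER genes were below 0, against 6280 of all 12820 genes tested. The median log2 fold change was −0.14 for the amino acid response and −0.17 for the ER genes, against 0.0094 for all genes tested. Leaving out single libraries moved the amino acid response median to −0.091 without control 1 and −0.062 without YAP siRNA library 3, and the ER median to −0.10 without control 1 and −0.27 without control 3. Medians in pairs 1, 2 and 3 were −0.10, −0.15 and −0.12 for the amino acid response. For the ER genes they were −0.28, −0.13 and −0.072, and for all genes 0.00030, 0.017 and −0.014. Of the 32 genes, 17 were lower in all 3 pairs (53.1%, against 27.1% of all genes tested) and 2 were higher in all 3 (6.25%, against 27.4%). The groups did not overlap for 4 genes, Chac1, Cars, Dnajb9 and Creld2, each lower after YAP siRNA (12.5%, against 9.49% of all genes), and for 0 higher (against 9.47%). With the block, edgeR and DESeq2 each called Ddit3, Vldlr, Chac1 and Creld2 lower and no other of the 32 (edgeR called 10.1% of all genes lower and 9.28% higher, DESeq2 10.2% and 9.22%).

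Many amino acid response genes differed between replicate numbers in both groups. The labels do not say what a number marks. In the blocked limma fit, an F test of the replicate number passed for 15 of the 22 amino acid response genes (68.2%) and for 1 of 10 ER genes, Calr, against 40.6% of all genes tested and 46.7% of those at least as abundant as the lowest of the 32. In limma without a trend 3075 genes passed this test in place of 5202.

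Atf4, Psat1, Iars and Asns were higher in number 1 than in numbers 2 and 3 in both groups. The ratio of number 1 to the mean of the others was 2.87 in the controls and 2.10 after YAP siRNA for Atf4, 2.12 and 1.71 for Psat1, and 1.84 and 1.81 for Iars (limma adjusted p of the F test 1.8e-04, 4.1e-04 and 3.6e-04). Ddit3, Vldlr, Trib3 and Eprs ran the other way, with ratios in the controls of 0.568, 0.545, 0.738 and 0.595. Atf4 mRNA and the mRNA of its target Ddit3 thus differed between numbers in opposite directions. Hspa5 had ratios of 1.06 and 0.964, and its F test did not pass (limma adjusted p = 0.466). Phgdh had the highest ratios, 3.76 and 5.27, with the limit on its counts given above.

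**Figure D4:**
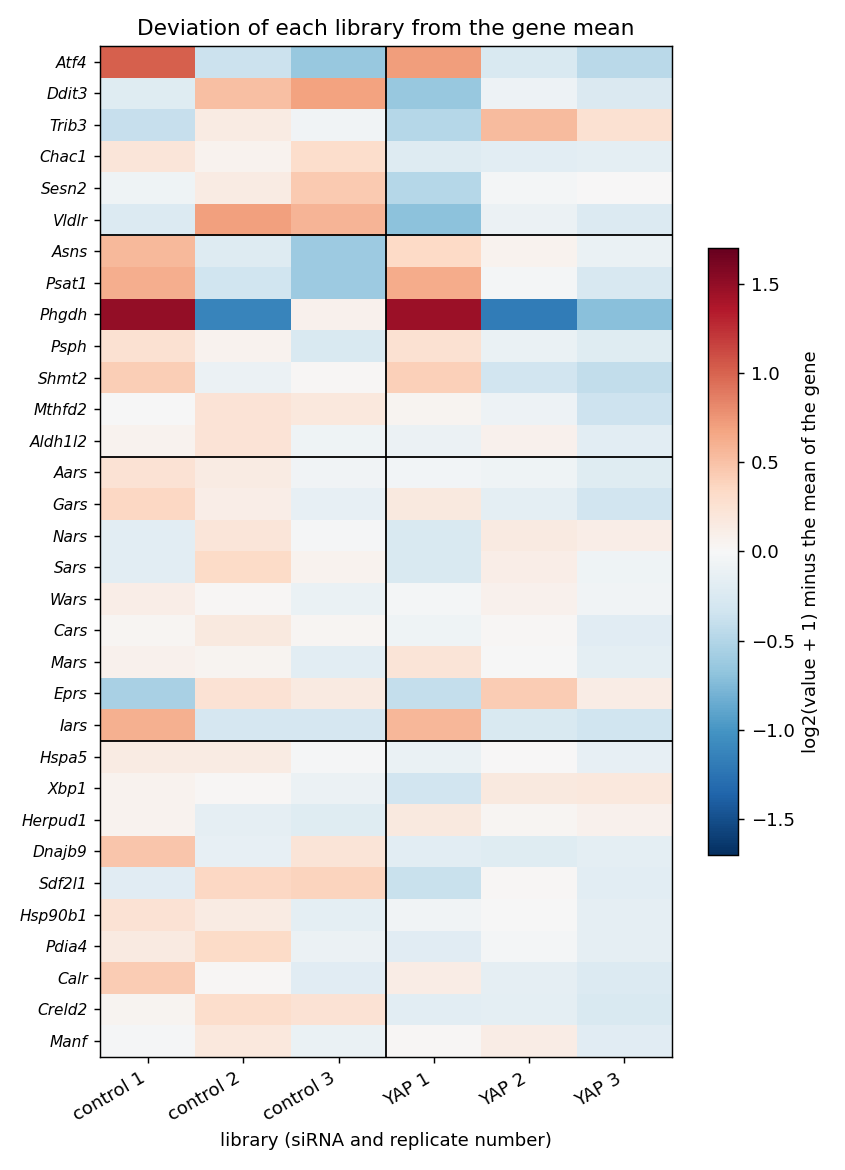
Log2(value + 1) of each of the 32 genes in each of the 6 libraries, as the difference from the mean of the gene over all libraries (colour); rows are genes in the order regulators, enzymes, tRNA synthetases and ER genes, columns are libraries. Phgdh, Atf4, Psat1 and Iars are high in number 1 of both groups, and the ER genes in the lowest block vary less.

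The sensors upstream of both responses were measured as a separate list of 12 genes, of which 1 rose and 3 fell with the block (8.33% and 25.0%, against 8.32% and 8.96% of all genes tested). Atf6, the ER membrane sensor, had 5583, 6464 and 5535 normalized counts in the controls and 3989.8, 3909 and 3781 after YAP siRNA. The groups were well apart, with a log2 fold change of −0.59 (SE 0.0898, blocked limma adjusted p 0.00549, unblocked 0.176). Mbtps1, which encodes the site-1 protease that cuts ATF6, had 5994, 6559 and 6031 in the controls and 4108, 4367 and 3862 after YAP siRNA (log2 fold change −0.59, SE 0.0835, blocked limma adjusted p 0.00418, unblocked 0.170). Without number 2, their adjusted p was 0.0945 and 0.0630 with the block, and without a trend 0.0899 and 0.0824.

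Ern1, the IRE1 gene, named after its values were seen, fell by 0.48 on the log2 scale (blocked limma adjusted p 0.0399, 0.360 without number 2 and 0.101 without number 3). Eif2ak2, which encodes the eIF2alpha kinase PKR, rose by 0.44 (blocked limma adjusted p 0.0276, 0.261 without number 2 and 0.0637 without number 3). The kinase of the ER branch, Eif2ak3 (PERK), had −0.22 and that of the amino acid branch, Eif2ak4 (GCN2), 0.23, and neither passed (blocked limma adjusted p 0.142 and 0.161); both were named after their values were seen.

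Other ER folding, export and degradation genes gave 7 lower and 1 higher of 28 tested (25.0% and 3.57%, against 8.96% and 8.32% of all genes tested). Their median log2 fold change was −0.20, against 0.0094 for all genes tested. Hyou1, an ER HSP70-like chaperone that works with BiP, had 11871, 12620.3 and 11270.4 normalized counts in the controls and 8084, 7243 and 6393 after YAP siRNA. No library of the groups overlapped, and the log2 fold change of −0.72 (SE 0.0897) passed with the block (limma adjusted p = 0.00242, and 0.165 without the block). It also passed when any 1 replicate number was left out (highest adjusted p 0.0409), but not without a trend (0.0803). Each fit with a number left out had 2 libraries per group. Calls over all genes in these fits ranged from 123 higher and 177 lower without number 2 to 2804 and 2792 without number 1. Dnajb11, the BiP co-chaperone ERdj3, had 4771, 6441 and 6536 in the controls and 3664, 3448 and 3558 after YAP siRNA, a log2 fold change of −0.72 (blocked limma adjusted p 0.00669 and 0.0786 without number 2).

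Dnajb11, chr16:22857847-22857867, gene on the plus strand, ER stress response element II on the gene strand: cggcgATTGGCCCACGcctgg

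Edem3, which trims mannose from misfolded glycoproteins, fell by 0.49 on the log2 scale (blocked limma adjusted p 0.0164 and 0.216 without number 2). BiP, the partner of the Hyou1, Dnajb11 and Dnajb9 products, did not pass, as given above; whether its fold change differs from theirs was not tested.

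Of 22 other ATF4 targets and partners tested, 2 rose and 4 fell (9.09% and 18.2%, against 8.32% and 8.96% of all genes tested). Atf5, a related transcription factor gene induced with CHOP, had 554, 1531 and 1870.3 in the controls and 992, 3165 and 3067 after YAP siRNA. Each library was above the control of its number, and the groups overlapped through number 1 (log2 fold change 0.87, SE 0.108, blocked limma adjusted p 0.00244, unblocked 0.653). Stc2, which encodes the secreted glycoprotein stanniocalcin 2, had 1249, 1615 and 1526 in the controls and 816, 627 and 653 after YAP siRNA (log2 fold change −1.07, SE 0.155, blocked limma adjusted p 0.00460, unblocked 0.158). Both passed with the block when any 1 number was left out (highest adjusted p 0.0429 and 0.0444), but not without a trend (0.0788 and 0.0886). The fits with a number left out again had 2 libraries per group, with the range of calls given for Hyou1. Cebpg, an ATF4 partner, rose by 0.47 (blocked limma adjusted p 0.0314, 0.285 without number 2 and 0.0751 without number 3). Atf3, a transcription factor gene of the same cascade, named after its values were seen, fell by 0.69 (blocked limma adjusted p 0.0325, 0.222 without number 2 and 0.156 without number 3).

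Among 11 other cytosolic tRNA synthetases 0 rose and 0 fell, as for the 9 described above (against 8.32% and 8.96% of all genes tested). The one with the smallest p, Dars, had a log2 fold change of 0.29 (blocked limma adjusted p 0.0665). Of the 12 other folate and serine genes 1 rose and 0 fell (8.33% higher, near the 8.32% of all genes tested). Mthfd1, the cytosolic folate enzyme, had a log2 fold change of 0.58 (blocked limma adjusted p 0.00848 and 0.0972 without number 2).

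**Figure D5:**
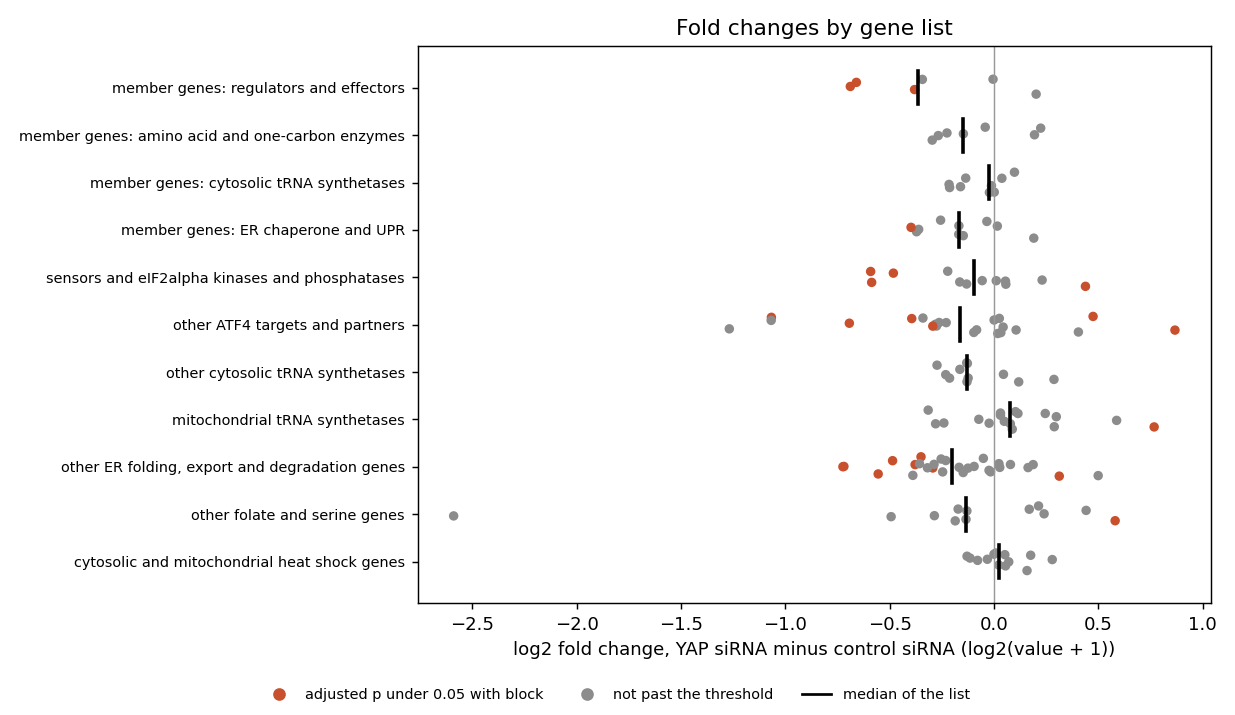
Log2 fold changes of single genes (points, x axis) by list (y axis), the 32 genes in the upper 4 rows and wider lists below; red points passed an adjusted p of 0.05 with the block and black bars are list medians. Red points lie below 0 in the ER lists with 1 exception, and on both sides of 0 for sensors and for other ATF4 targets.

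Genes grouped by promoter element gave the following counts, and these groups overlap the lists above. Of the 15 tested genes with an ER stress response element in their window, 4 fell and 0 rose with the block (26.7% and 0%, against 8.96% and 8.32% of all genes tested), with a median log2 fold change of −0.17. The 4 were Creld2, Pdia6, Syvn1 and Zfp57, named after their values were seen. The 15 include 4 of the ER genes and 4 of the other ER folding, export and degradation genes. Creld2, Pdia6 and Syvn1 were therefore counted in those lists already, and only Zfp57 was on none of them. The share is thus not independent of the ER lists. Of the 9 with the ER stress response element II, 2 fell and 1 rose (median 0.058), and of the 106 with the unfolded protein response element, 12 fell and 7 rose (11.3% and 6.60%, median −0.13). Of the 257 tested genes with the amino acid response element core, 24 fell and 25 rose (9.34% and 9.73%), close to the shares of all genes.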

How the data were processed

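RNA sequencing of 6 libraries was used, 3 per siRNA. The submitters' processing notes name DESeq 1.14.0, HTSeq 0.6.1, TopHat2 2.0.9 and the build mm9. The sources used here do not give annotation, strand setting or filters. What the authors deposited was a normalized signal: each count over a size factor common to its library. All values above 0 (100% per library) were whole multiples, within 0.01 reads, of 1 read, so reads were recovered. On these, edgeR called 0 genes without and 1190 higher and 1289 lower with the block.

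The test was limma (3.58.1, R 4.3.3) on log2(value + 1) (moderated, mean-variance trend, two-sided, Benjamini-Hochberg over the 12820 genes whose mean reached 10; threshold 0.05). The main design had no covariate. Deviations from group means correlated between libraries of equal number (r = 0.788, 0.705 and 0.532 across genes). Control 2 with YAP siRNA 3 gave 0.552, and control 3 with YAP siRNA 2 gave 0.516. Number 1 against numbers 2 and 3 gave −0.75 to −0.62. The check thus sets number 1 apart, but hardly tells numbers 2 and 3 from each other. The replicate number was taken to pair the libraries, from this check and not from a label, and the blocked fit is given throughout. Within groups, each pair of libraries differed beyond sampling noise. Alternatives were other pseudocounts, filters, scalings, variance models, edgeR 4.0.16, DESeq2 1.42.0 and leaving out libraries. The code was tested on simulated counts.

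The 32 genes and all lists were chosen with earlier results of these data known. The naming rule took all 32, Yap1, and in each wider list up to 3 passing genes with the smallest blocked p, or else 1. It was not followed for the mitochondrial tRNA synthetases and the heat shock genes. Genes named outside the rule are marked as named after their values were seen. Exon lengths, overlaps and 31-mers came from GENCODE M21, and promoters from RefSeq (GRCm38.p6; 1 gene matched by a synonym), neither on the build of the files, whose values are per gene without coordinates.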

Additional observations from a re-analysis of the deposited data

How the results depend on the processing

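Counts of calls depended on pairing, the variance model and on replicate numbers 1, 2 and 3. With the replicate block 1067 genes were higher and 1149 lower. With the block and a pseudocount of 0.5 they were 1053 and 1137, with 10 1072 and 1163, with no filter 1000 and 1137, with a minimum mean of 50 1049 and 1103, with one total 1225 and 1027, with quantiles 1167 and 1182, without a trend 12 and 18, in edgeR 1190 and 1289, in DESeq2 1182 and 1308 (325 and 397 without the block), and at an adjusted p under 0.01 262 and 357. Leaving out single libraries or a number gave 0 to 2804 higher and 0 to 2792 lower; the upper ends are the blocked fits without number 1, those without number 2 were 123 and 177, and those without number 3 538 and 590. Without control library 1 and without the block 192 and 305 genes passed, none of the 32 among them. Combinations of the block with pseudocounts, filters and scalings were added after the data were seen.

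Of the amino acid response genes 3 fell with the block under both other pseudocounts, both filters, quantiles, edgeR and DESeq2, 2 with one total and 0 without a trend; with libraries or numbers left out, 0 to 7 were lower and 0 to 3 higher. Of the ER genes 1 fell under each of these settings with the block, 1 in DESeq2 without it, 0 without a trend, and 0 to 3 with libraries or numbers left out. The upper ends are again without number 1. Without number 2, 0 of the 32 passed. The replicate number test passed for 3075 genes without a trend. The median of the amino acid response was −0.11 with one total, −0.10 with quantiles, and −0.19 to −0.062 with libraries left out, and that of the ER genes −0.27 to −0.10 with libraries left out.

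Among single genes, 44 of 704 alternative values changed sign, in 14 genes, none of which passed in the blocked fit. The 704 include limma fits with the block, with other filters and without a trend. These return the main fold change by construction and could not change its sign. With one total Atf4 was at 0.022, Wars at 0.015 and Iars at 0.0050, with quantiles Atf4 was at 0.022 and Wars at 0.0014, and DESeq2 with the block gave −3.8e-04 for Nars. With libraries or numbers left out, the ranges were −0.36 to 0.50 for Atf4, −0.016 to 0.50 for Trib3, −0.069 to 0.52 for Asns, −0.036 to 0.59 for Psat1, −1.10 to 0.38 for Phgdh, −0.18 to 0.074 for Psph, −0.091 to 0.13 for Nars, −0.072 to 0.049 for Wars, −0.066 to 0.13 for Mars, −0.15 to 0.33 for Eprs, −0.31 to 0.27 for Iars, −0.11 to 0.22 for Xbp1, −0.31 to 0.0050 for Calr and −0.11 to 0.055 for Manf. The cause was not tested.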

Other observations

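Mitochondrial tRNA synthetases, which charge tRNAs for translation inside mitochondria, had a median log2 fold change of 0.078 over 17 genes, with 12 above 0. For all 12820 genes tested the median was 0.0094, with 6540 above 0. With the block 1 of the 17 rose and 0 fell (5.88% and 0%, against 8.32% and 8.96% of all genes tested). Of 13 cytosolic and mitochondrial heat shock genes tested, 0 rose and 0 fell with the block, against the same shares of all genes. The replicate number passed the F test for 12 of them (92.3%, against 40.6% of all genes tested). Hsp90aa1, the inducible cytosolic HSP90, named after its values were seen, had 6053, 157 and 441 normalized counts in the controls and 6196, 199 and 378 after YAP siRNA, so number 1 stood far above numbers 2 and 3 in both groups.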
